A study of Caenorhabditis elegans with 36 samples.

Results

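Argonaute proteins carry small RNAs to matching transcripts, and *C. elegans* has an unusually large set of them. The genes followed here by name were *alg-1*, *alg-2*, *alg-3*, *alg-4*, *csr-1*, *prg-1*, *wago-1*, *hrde-1*, *ergo-1* and *rde-1*. All 10 were found, each as 1 of the 41875 loci of the table and none joined with another gene. *alg-3* and *alg-4* are known for their expression in the sperm-producing germline, and this pair was set against the other 8 genes. The rule picks genes by name and uses no measured value, though earlier results of these data were known when it was set.

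RNA was sequenced from total lysate, from monosomes (single ribosomes) and from polysomes without disomes, taken from whole worms of the wild type Bristol N2 (WT) and of the mutants *ppp-1(wrm10)* and *ppp-1(wrm15)*, abbreviated *wrm10* and *wrm15*, at day 1 of adulthood. *ppp-1* encodes the gamma subunit of eIF2B, the factor that recharges the initiation factor eIF2, and both alleles are point mutations. Each of the 9 combinations of genotype and fraction has 4 libraries by its labels, 36 in all. No treatment set the groups apart, though by the study's methods worms were washed and lysed with the drug cycloheximide. The mutants came from a chemical mutagenesis of a conditionally sterile strain with mutations in *fer-15* and *fem-1*, and were outcrossed to N2. Each group is represented by 1 pooled value per locus in FPKM (fragments per transcript length and per sequenced depth), so the spread between the 4 libraries is not known, no difference below was tested, and library depth is unknown. A difference is called 1.5-fold when the ratio of the pooled values reached that size, a size chosen here that says nothing about replicate error. It is read against the share of all loci past the same ratio, among the 12741 loci with a mean of at least 1 FPKM over the 9 groups. Whole worms were extracted, so more cells of a type and more RNA per cell cannot be told apart.

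In worms, Argonautes act in layers. Primary Argonautes take up the first small RNAs, which are microRNAs, piRNAs, or siRNAs cut from double-stranded RNA. In the piRNA and siRNA pathways, RNA-dependent RNA polymerases then copy targeted transcripts into secondary small RNAs that a further set of Argonautes carries. ALG-1 and ALG-2 bind microRNAs, PRG-1 is the Piwi protein that binds piRNAs, RDE-1 binds siRNAs from foreign double-stranded RNA, ERGO-1 binds endogenous siRNAs in oocytes and embryos, and ALG-3 and ALG-4 bind endogenous siRNAs during spermatogenesis. Among the secondary Argonautes, CSR-1 targets expressed germline genes, WAGO-1 acts in the cytoplasm and germ granules of the germline, and HRDE-1 acts in germ cell nuclei, where it carries silencing across generations.

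The members are protein-coding genes of similar size, with longest coding sequences from 2472 bases in *prg-1* to 3363 bases in *ergo-1* in the Ensembl annotation of WBcel235. *alg-3* lies on chromosome IV (11704246 to 11708264 in WBcel235, plus strand, 12 exons in its longest transcript). *alg-4* lies on chromosome III (9887210 to 9891458, minus strand, also 12 exons). The microRNA Argonautes *alg-1* and *alg-2* are on chromosomes X (13949114 to 13956261) and II (873176 to 879001), *csr-1* is on IV (7957580 to 7962129) and *hrde-1* on III (4172337 to 4176159). *rde-1* lies on chromosome V (9987916 to 9991642) and *wago-1* on chromosome I (7235352 to 7238790). The table's *ergo-1* locus (chromosome V, 1008803 to 1023144) runs past the annotated end of the gene at 1018352, and its *prg-1* locus (chromosome I, 7583810 to 7588367) starts before the annotated start at 7585329. Exons of another gene overlap 4 members, namely the snoRNA K02B9.10 in *alg-1*, *frpr-10* in *csr-1*, and, on the other strand, D2030.12 in *prg-1* and *pei-2* in *ergo-1*. How the authors' run treated strand, and reads shared by close relatives such as *alg-1* and *alg-2*, is not given in the sources used here. *alg-3* and *alg-4* overlap no other annotated gene.

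In WT total RNA, the germline Argonautes were the most abundant. *wago-1* had 265 FPKM, *hrde-1* 229.5, *csr-1* 169 and *prg-1* 168, while *ergo-1* had 60.8 and *rde-1* 28.0. The sperm-expressed pair lay below them, *alg-4* at 24.0 FPKM and *alg-3* at 21.3, followed by the microRNA Argonautes *alg-2* at 19.1 and *alg-1* at 11.2. The highest level was thus 23.6 times the lowest. Without a spread, neighbours in this order as close as *csr-1* and *prg-1* cannot be separated. *wago-1* ranked first of the 10 in each of the 9 groups, and *alg-1* ranked last or next to last in each. *alg-3* and *alg-4* together made up 4.55% of the summed FPKM of the 10 genes in WT total RNA.

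**Figure D1:**
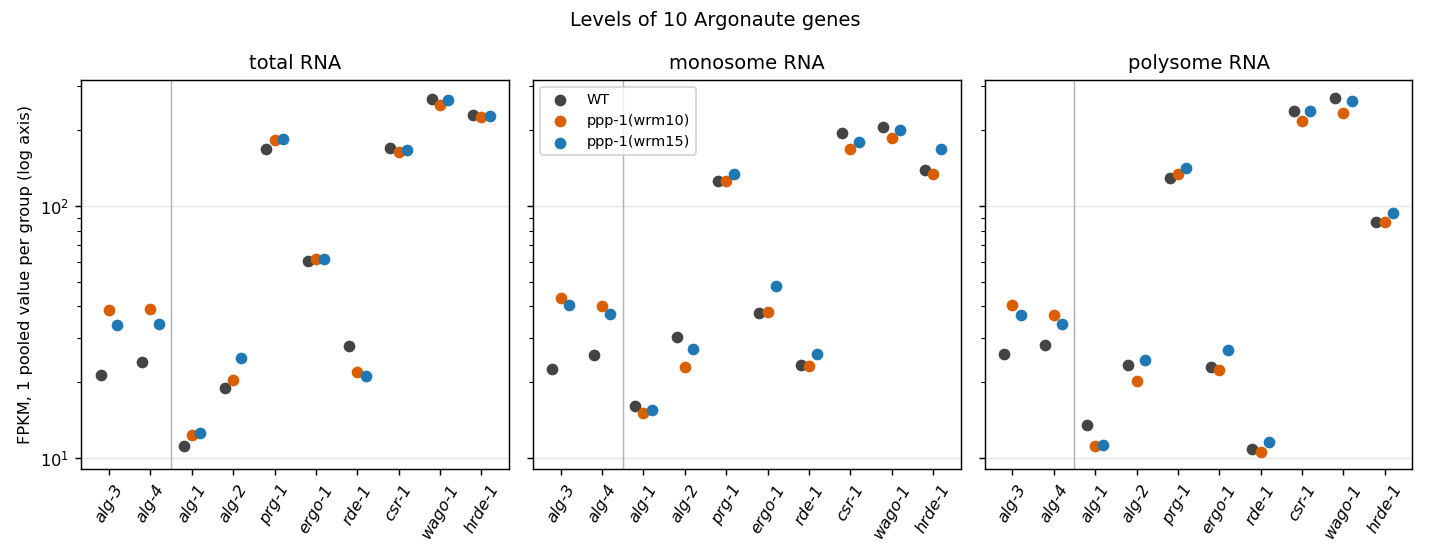
Levels of the 10 Argonaute genes in total, monosome and polysome RNA, on a log axis in FPKM. Each point is 1 pooled value per group of 4 libraries, so no error bar can be drawn, and the vertical line separates the sperm-expressed pair, whose WT points are the lowest of the 3 genotypes in each fraction.

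The sperm-expressed pair was higher in both *ppp-1* alleles than in WT in each fraction, and none of the other 8 genes reached its differences in any of these 6 comparisons. In total RNA, *alg-3* had 21.3 FPKM in WT, 38.6 in *wrm10* and 33.7 in *wrm15*. Its monosome values were 22.7, 43.3 and 40.6 FPKM, and its polysome values 26.0, 40.6 and 36.9 FPKM. The WT value is the lowest of the genotypes in each fraction, and *wrm10* the highest.

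*alg-4* followed the same order at nearly the same levels. In total RNA it had 24.0 FPKM in WT, 39.0 in *wrm10* and 34.0 in *wrm15*. Its monosome values were 25.8, 40.3 and 37.4 FPKM, and its polysome values 28.1, 37.0 and 34.0 FPKM. In each comparison with WT, *alg-4* differed by less than *alg-3*.

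As ratios to WT, *alg-3* was 1.81-fold in total RNA, 1.91-fold in monosomes and 1.56-fold in polysomes of *wrm10*, and 1.58-, 1.79- and 1.42-fold in those of *wrm15*. For *alg-4* the ratios were 1.62, 1.56 and 1.31 in *wrm10*, and 1.42, 1.45 and 1.21 in *wrm15*. With 1.5-fold as the limit, *alg-4* therefore passed in total and monosome RNA of *wrm10* but in no fraction of *wrm15*, and *alg-3* passed everywhere except in polysomes of *wrm15*. Both alleles were compared with the same WT values, so a chance deviation of the pooled WT value would enter all ratios of a fraction.

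Differences of this size were not rare among all loci. In total RNA, 10.0% of loci were at least 1.5-fold higher in *wrm10*, against 2 of the 10 members, and 9.24% were so in *wrm15*, against 1 of 10. For monosomes the shares of all loci were 11.8% and 10.4%, with 2 and 1 members, and for polysomes 9.03% and 8.57%, with 1 and 0 members. As a family, then, the Argonautes held about as many higher genes as the transcriptome did. *alg-3* stood well into the upper tail, where 7.003% of loci in *wrm10* and 8.20% in *wrm15* had a total RNA ratio at least as high. For *alg-4* these shares were 8.64% and 10.5%.

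**Figure D2:**
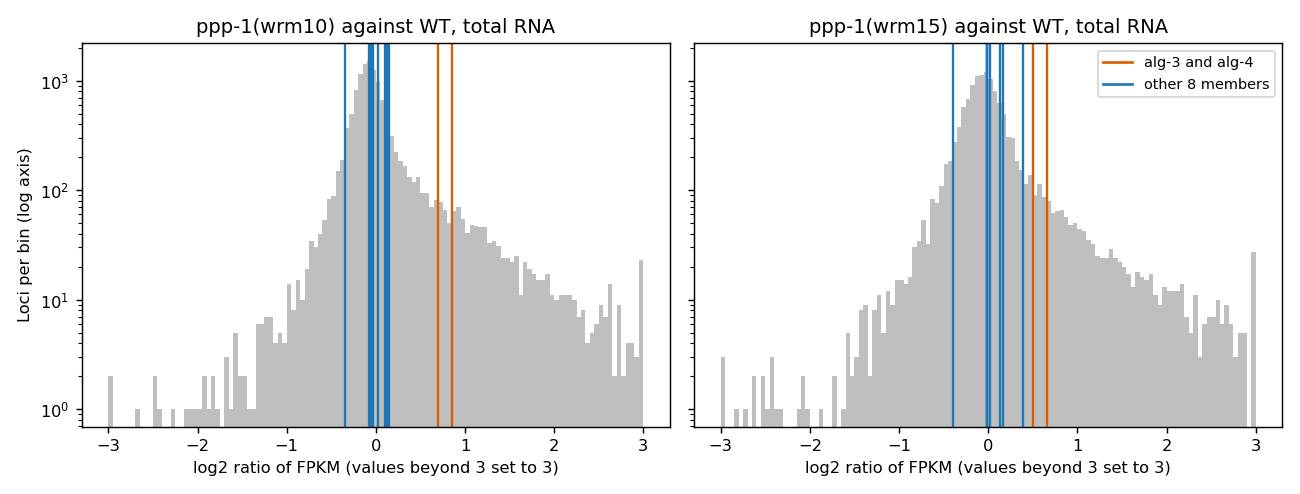
Distribution of the log2 ratio to WT in total RNA over all loci with a mean of at least 1 FPKM (grey, log axis, loci per bin), with the members as vertical lines. *alg-3* (0.86 and 0.66) and *alg-4* (0.70 and 0.50) lie in the upper tail, and the other 8 members lie between -0.34 and 0.14 in *wrm10* and between -0.40 and 0.39 in *wrm15*.

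No member was 1.5-fold lower than WT in any fraction of either allele. The shares of all loci past that limit were small, 1.99%, 2.54% and 3.23% in total, monosome and polysome RNA of *wrm10* and 3.30%, 4.72% and 3.92% in those of *wrm15*, so a count of 0 among 10 genes sets the members apart in no way.

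The secondary germline Argonautes were close to WT in total RNA. *wago-1* had 265 FPKM in WT, 251 in *wrm10* and 262 in *wrm15*, *csr-1* had 169, 163 and 168 FPKM, and *hrde-1* had 229.5, 225 and 227 FPKM. The log2 ratios of these 3 genes lay between -0.08 and -0.01 in both alleles. The piRNA Argonaute *prg-1* had 168 FPKM in WT total RNA, 183 in *wrm10* and 184 in *wrm15*, and *ergo-1* had 60.8, 61.8 and 61.8 FPKM.

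The 2 microRNA Argonautes had higher values than WT in total RNA and lower ones in monosomes of both alleles. *alg-1* had 11.2 FPKM in WT total RNA against 12.4 in *wrm10* and 12.6 in *wrm15*, and 13.6 FPKM in WT polysomes against 11.2 and 11.3. *alg-2* had 19.1, 20.5 and 24.99 FPKM in total RNA, 30.3, 23.0 and 27.0 FPKM in monosomes, and 23.4, 20.2 and 24.5 FPKM in polysomes. *rde-1*, the primary Argonaute of the response to foreign double-stranded RNA, was the member with the lowest ratio in total RNA, at 28.0 FPKM in WT, 22.1 in *wrm10* and 21.2 in *wrm15*. Its polysome values were 10.9, 10.6 and 11.6 FPKM. These differences stay under 1.5-fold. Beside the lower monosome values of *alg-1* and *alg-2*, 8 of the 10 somatic markers were below WT in monosomes of each allele. Their median log2 ratio was -0.22 in both. Their summed level was 8809 FPKM in WT, 6505 in *wrm10* and 7307 in *wrm15*, and none was at 0. *vit-2* and *vit-6* dominate this sum, at 3421 and 4226 FPKM in WT and 2530 and 3070 in *wrm10*. Lower monosome values were not confined to somatic markers. The 7 germline nucleus markers ran from -0.38 in *gld-1* to -0.005 in *him-3* in *wrm10*, and from -0.19 to 0.36 in *wrm15*. Of the 8 members outside the pair, 7 were below WT in *wrm10* and 4 in *wrm15*. The part of the somatic markers in the result was not tested.

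**Figure D3:**
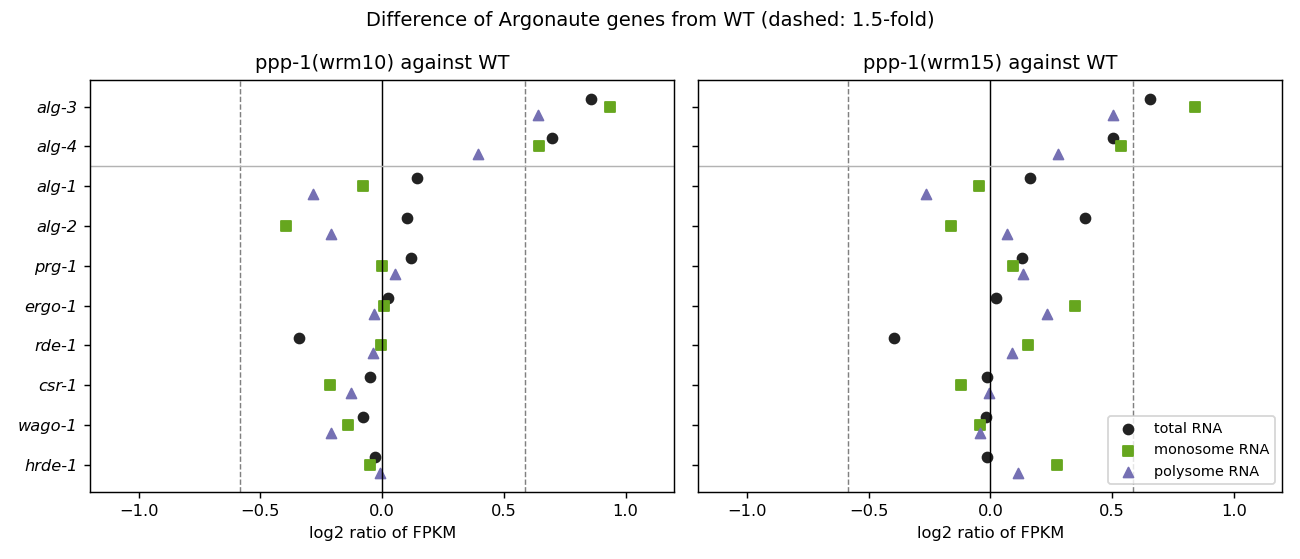
Log2 ratio of each mutant to WT for the 10 genes in total RNA (circles), monosomes (squares) and polysomes (triangles), from 1 pooled value per group. The points of *alg-3* and *alg-4* lie between 0.28 and 0.93, above all points of the other 8 genes in the same allele and fraction, and the dashed lines mark 1.5-fold.

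Association with ribosomes within WT divided the members differently. FPKM is scaled within each fraction, so the ratio of polysome to total FPKM compares a gene with the other RNA of the fraction and is not a share of its molecules. Relative to total RNA, *hrde-1* had 37.8% of its level in WT polysomes (86.8 against 229.5 FPKM), *ergo-1* 37.9% (23.0 against 60.8 FPKM) and *rde-1* 39.0% (10.9 against 28.0 FPKM). These 3 genes serve different pathways and cell types. *prg-1* stood at 76.6%, and *csr-1*, with 238 FPKM in polysomes, at 141% of its total RNA level. On the log2 scale the polysome to total ratio was -1.40 for *hrde-1* and *ergo-1*, -1.36 for *rde-1*, -0.38 for *prg-1*, 0.02 for *wago-1*, and between 0.23 and 0.49 for *alg-1*, *alg-2*, *alg-3*, *alg-4* and *csr-1*. The median over all loci was 0.12.

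With 3 of 10 genes at least 1.5-fold lower in polysomes than in total RNA, the members were again close to the 27.1% of all loci that were. None was 1.5-fold higher, where 27.1% of all loci were (3398 of 12550). The same 3 genes were past the limit in *wrm10* (26.3% of all loci) and *wrm15* (25.7%). Relative to total RNA, WT monosomes held less *hrde-1* and *ergo-1* (log2 ratios -0.73 and -0.68, against 22.0% of loci 1.5-fold lower) and more *alg-2* (0.67, against 12.3% of loci 1.5-fold higher). The polysome to monosome ratio was 1.5-fold lower for *rde-1*, *ergo-1* and *hrde-1* (log2 ratios -1.10, -0.72 and -0.68), as it was for 23.5% of loci.

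The sperm-expressed pair had no special place here. In WT, the polysome to total ratio was 0.29 for *alg-3* and 0.23 for *alg-4*, and the range of the other 8 members, from -1.40 to 0.49, includes both. Of the FPKM in monosomes and polysomes together, polysomes held 53.4% for *alg-3* and 52.2% for *alg-4* in WT, near the median of 50.3% over all loci. The other members ranged from 31.8% in *rde-1* to 56.6% in *wago-1*. In the mutants this polysome percentage of the pair was lower, 48.4% and 47.8% in *wrm10* and 47.6% and 47.7% in *wrm15*. The corresponding log2 change of the polysome to monosome ratio was -0.29 and -0.25 in *wrm10* and -0.34 and -0.26 in *wrm15*. These values lay below the range of the other 8 genes in each allele (-0.20 to 0.18, and -0.22 to 0.23). They were not rare, since 15.6% of all loci in *wrm10* and 11.9% in *wrm15* were at least as low as *alg-3*. For *alg-4* these shares were 17.8% and 14.9%. The sperm markers lay lower still in this ratio, with a median of -0.41 in each allele and 27 of 28 genes below 0, and their part in the result was not tested. The median percentage over all loci was 50.3% in WT, 48.99% in *wrm10* and 49.3% in *wrm15*.

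Translational efficiency, taken as the polysome to total ratio in a mutant over that in WT, differed by less than 1.5-fold for each member in both alleles, while 5.68% of loci in *wrm10* and 6.35% in *wrm15* differed by more. On the log2 scale the change was -0.21 and -0.15 for *alg-3* and -0.30 and -0.23 for *alg-4*, so the pair was higher in total RNA by more than in polysomes. *alg-1* had the lowest change, -0.43 in each allele, and *alg-2* had -0.31 and -0.32. *rde-1* had the highest, 0.31 in *wrm10* and 0.48 in *wrm15*, with lower values in total RNA but not in polysomes of *wrm15*. With monosomes in place of total RNA as denominator, the change of *rde-1* was -0.03 and -0.07, that of *alg-2* 0.18 and 0.23, and that of *alg-1* -0.20 and -0.22, so the direction turned for *rde-1* and *alg-2* in both alleles, as it did in 1 allele for *prg-1*, *csr-1*, *ergo-1* and *hrde-1*. For *csr-1*, *prg-1*, *wago-1*, *hrde-1* and *ergo-1* the change against total RNA lay between -0.13 and 0.21.

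Sperm markers varied beside the values of the pair. Of 29 sperm marker genes, 28 were measured on their own and *gsp-4* was joined with another gene, and none of the 28 was at 0 in any group. Of 17 markers outside the *msp* family of major sperm proteins, 7 were at least 1.5-fold higher in total RNA of each allele. Of all loci, 10.0% in *wrm10* and 9.24% in *wrm15* were so. None of the 17 was 1.5-fold lower (1.99% and 3.30% of all loci), and their median log2 ratio was 0.36 in *wrm10* and 0.29 in *wrm15*. Among the 7 were *spe-6*, *spe-9*, *spe-10*, *spe-38*, *smz-1* and *smz-2*. *spe-38*, a sperm membrane protein needed for fertilization, had 1.14 FPKM in WT total RNA, 7.12 in *wrm10* and 6.61 in *wrm15*, and *spe-6*, a casein kinase-like protein of spermatocytes, had 12.4, 20.6 and 19.2 FPKM.

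The *msp* genes did not share this. None of the 11 was 1.5-fold higher in any fraction of either allele, where 8.57% to 11.8% of all loci were. Their median in total RNA was -0.21 and -0.06. In polysomes it was -0.64 and -0.59, with 8 and 6 of 11 at least 1.5-fold lower, against 3.23% and 3.92% of all loci. *msp-38* was 1.5-fold lower in total RNA of both alleles, at 151 FPKM in WT, 83.7 in *wrm10* and 84.6 in *wrm15*. The summed level of all 28 sperm markers, which the *msp* genes dominate, was 2471 FPKM in WT total RNA, 2428 in *wrm10* and 2511 in *wrm15*, and 4497, 3079 and 3173 FPKM in polysomes. In each fraction, the ratios of *alg-3* and *alg-4* lay above those of the 11 *msp* genes and within the range of the other sperm markers. Not all of those other markers were higher than WT. For example, *spe-11* had log2 ratios of 0.19 and -0.07 in total RNA, and *gsp-3* had -0.50 and -0.35 in polysomes. The part of sperm number or timing in the values of the pair was not tested.

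Oocyte markers are set here beside *ergo-1* and *hrde-1* in *wrm15*. In monosomes of that allele, *ergo-1* had 48.1 FPKM against 37.8 in WT and 37.98 in *wrm10*, and *hrde-1* had 168 against 139 and 134 FPKM. Of all loci, 16.1% and 19.4% had a monosome ratio at least as high in *wrm15*. Total RNA of the 2 genes differed from WT by a log2 ratio of 0.02 and -0.02. All 13 oocyte markers measured on their own were above WT in monosomes of *wrm15*, with a median log2 ratio of 0.40, and 11 of 13 were below WT in *wrm10*, with a median of -0.11. Their summed monosome level was 2215 FPKM in WT, 2054 in *wrm10* and 2936 in *wrm15*, and none was at 0. Their summed total RNA level was 4622, 4547 and 5113 FPKM. Unlike *ergo-1* and *hrde-1*, all 13 were above WT in total RNA of *wrm15* to some degree, from 0.005 in *cbd-1* to 0.32 in *oma-2*. In WT the polysome to total ratio of these markers had a median of -1.08, beside -1.40 for *ergo-1* and *hrde-1*. All 13 were at least 1.5-fold lower in polysomes, as were *rde-1* (-1.36) and 27.1% of all loci. The polysome to monosome ratio of the markers ran from -1.09 in *pos-1* to 0.27 in *cpg-1*, beside -0.72 for *ergo-1* and -0.68 for *hrde-1*. The part of oocytes in these values was not tested. The 7 germline nucleus markers had medians of -0.12 and -0.05 in total RNA of *wrm10* and *wrm15*, and the 10 somatic markers 0.05 and 0.12.

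**Figure D4:**
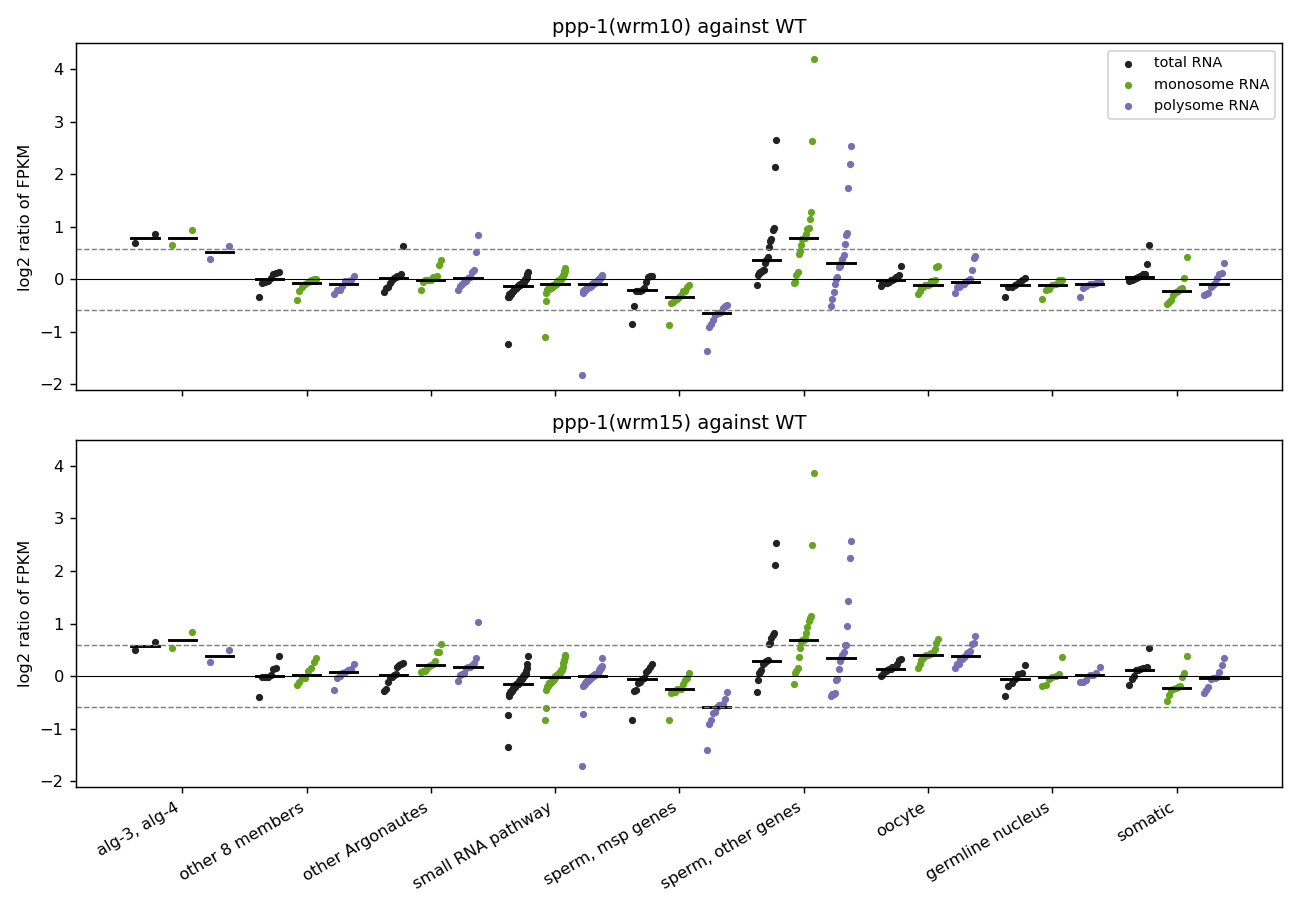
Log2 ratio to WT of *alg-3* and *alg-4*, the other 8 members, other Argonautes, small RNA pathway genes and cell type markers, in total RNA, monosomes and polysomes of each allele. Each point is 1 gene from pooled values, black bars are medians and dashed lines mark 1.5-fold, and the non-*msp* sperm genes have medians of 0.36 and 0.29 in total RNA where the *msp* genes have -0.21 and -0.06.

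The 5 loci whose profile over the 9 groups lay closest to the mean profile of *alg-3* and *alg-4* were *hdl-2*, F58G1.3, Y54E2A.7, T20F5.5 and F58E6.5. Closeness was measured as the root mean square distance of log2 FPKM, each profile centred on its own mean, over 12254 loci. It was 0.094 for *hdl-2*, 0.103 for F58G1.3 and for Y54E2A.7, 0.11 for T20F5.5 and 0.113 for F58E6.5, while *alg-3* and *alg-4* were 0.121 apart and the median locus lay 0.509 from the pair. All 5 had their lowest total RNA value in WT, which their choice by closeness to the pair largely fixed in advance. For example, *hdl-2* had 5.71 FPKM in WT, 9.001 in *wrm10* and 8.58 in *wrm15*. Of the other members, *alg-1* came nearest to the pair at 0.366 and *hrde-1* lay farthest at 0.67.

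Further Argonautes showed how wide the family spread in polysome association. Of 13 others looked up, *wago-5* and *wago-11* fell below the filter on low values and 11 were compared. In total RNA, 1 of the 11 was 1.5-fold higher in *wrm10* (*wago-10*, 3.67 FPKM in WT and 5.69 in the mutant) and none in *wrm15*. Of all loci, 10.0% and 9.24% were so in these alleles. None of the 11 was 1.5-fold lower, where 1.99% and 3.30% of all loci were. In WT, 8 of the 11 were at least 1.5-fold lower in polysomes than in total RNA, against 27.1% of all loci. The median of the 11 was -0.67. The lowest were *prg-2*, a close relative of *prg-1*, at 109 FPKM in total RNA and 9.08 in polysomes, *wago-2* at 45.3 and 4.55 FPKM, and *alg-5* at 53.4 and 7.35 FPKM, named after their values were seen. They thus lay well under *hrde-1*, *ergo-1* and *rde-1*. In *vsra-1* (listed as C04F12.1), also named after its values were seen, polysomes had 8.38 FPKM in WT, 15.0 in *wrm10* and 17.2 in *wrm15*, while total RNA had 17.7, 18.3 and 20.5 FPKM. Translational efficiency was past 1.5-fold for 5.68% of all loci in *wrm10* and 6.35% in *wrm15*. That of *vsra-1* differed from WT by 0.79 and 0.82 on the log2 scale, the only one of the 21 Argonautes compared past 1.5-fold in either allele. With monosomes in place of total RNA as denominator, its change was 0.56 and 0.43, under 1.5-fold in both alleles.

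**Figure D5:**
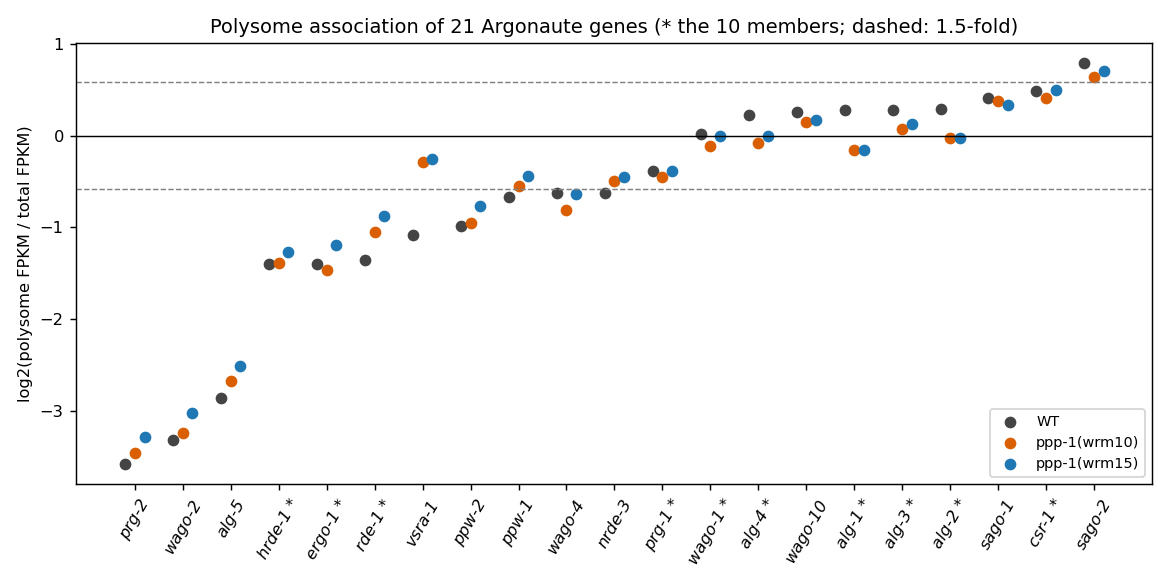
Log2 ratio of polysome to total FPKM in each genotype for the 21 Argonaute genes compared, ordered by the WT value, with the 10 members starred and 1.5-fold dashed. In WT, 11 of the 21 lie at or under the lower dashed line and 1, *sago-2*, above the upper one, against 27.1% of all loci in each direction. *vsra-1* has a WT point well under both mutant points.

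The partners of the Argonautes stayed near WT with a clear exception. Of 44 genes of microRNA processing, RNA-dependent RNA polymerases and the ERI complex, Mutator foci, piRNA production, germ granules and RNAi, 40 were compared, 3 were joined with another gene (*eri-1*, *henn-1* and *nrde-4*) and *cde-1* was not matched. None was 1.5-fold higher in total RNA of either allele, against 10.0% of all loci in *wrm10* and 9.24% in *wrm15*. Lower by this limit were 1 in *wrm10* (1.99% of all loci) and 2 in *wrm15* (3.30%). The median log2 ratio of the 40 was -0.12 and -0.15, beside -0.06 and -0.04 over all loci. The gene lower in both was *rrf-3*, the RNA-dependent RNA polymerase that makes the primary siRNAs bound by ERGO-1 and by ALG-3 and ALG-4. The paper places the *fer-15* mutation of the parental strain on the same chromosome as *ppp-1*. Whether parental or induced variants other than *ppp-1* remained after outcrossing was not tested. Their part in the differences from WT, that of *rrf-3* included, cannot be told apart from that of *ppp-1*.

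*rrf-3* had 22.0 FPKM in WT total RNA, 9.36 in *wrm10* and 8.63 in *wrm15*, a log2 ratio of -1.23 and -1.35. In monosomes it had 26.8, 12.6 and 15.1 FPKM, and in polysomes 13.7, 3.89 and 4.20 FPKM. Its WT value was thus the highest in each fraction, opposite to *alg-3* and *alg-4*, while *ergo-1* had 60.8, 61.8 and 61.8 FPKM in total RNA. The other polymerases were closer to WT, *rrf-1* at -0.33 and -0.27 and *ego-1* at -0.28 and -0.30 in total RNA. *pid-1*, a piRNA production factor, was lower in *wrm15* only by this limit, at 35.8 FPKM in WT, 34.4 in *wrm10* and 21.5 in *wrm15*. *dcr-1*, which cuts double-stranded RNA and microRNA precursors, had log2 ratios of -0.28 and -0.33.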

How the data were processed

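Libraries were depleted of ribosomal RNA. According to the labels and the study's methods, reads were mapped to *C. elegans* WBcel235 (Ensembl 91) with HISAT2 2.1.0, assembled with StringTie 1.3.4d, merged with Cuffmerge, and quantified and compared with Cuffquant and Cuffdiff (Cufflinks 2.2.1). The authors deposited 1 pooled FPKM value per group and locus, normalized in that run, and its normalization option is not given in the sources used here. In the table there are 1507500 rows, 36 pairs of groups for each of 41875 loci. It also holds the authors' own fold changes, test statistics, p-values and q-values, which were not used, so no error or test is given. No value column of an unmapped sample was found.

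Log2 ratios were computed without a pseudocount over loci with a mean of at least 1 FPKM and both values above 0 (Python 3.11.15, numpy 2.4.6, pandas 2.3.3). The steps were tested on simulated data. In 3085 loci several genes are joined, and these entered only the counts over all loci. Genes were matched by name, then by synonyms in RefSeq and WormBase name tables, and coordinates are 1-based. Named beside the members were listed genes past 1.5-fold in the same direction in total RNA of both alleles, and the 5 loci nearest in profile to *alg-3* and *alg-4*. A gene that this rule names is not reported here. Members, lists and limits were chosen with earlier results of these data known. Alternatives were pseudocounts of 0.1 and 1 FPKM, centring, other filters and folds, and monosomes as denominator.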

Additional observations from a re-analysis of the deposited data

How the results depend on the processing

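Every value is 1 pooled FPKM per group, so no replicate could be left out, depth is unknown, and nothing here measures replicate error. No paired analysis was possible because the table holds no values per library. No member had several loci, so their sum was not run. The 34 member counts were the same with 0.1 or 1 FPKM added and with centring. The 12 counts of the comparisons with WT were also the same without the filter on the mean, with a mean of at least 5 FPKM and without joined loci, and the 4 of translational efficiency with monosomes as denominator. These settings were not run on the other counts. A single member's log2 ratio shifted by at most 0.076 with 1 FPKM added and 0.115 with centring, but by up to 0.553 with monosomes as denominator, where 12 of 20 translational efficiency values moved by at least 0.1, with a turn of direction for *alg-2* and *rde-1* in both alleles, *prg-1* and *csr-1* in *ppp-1(wrm10)*, and *ergo-1* and *hrde-1* in *ppp-1(wrm15)*.

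Changing the fold limit changed member counts. At 2-fold, 0 members were higher in total, monosome or polysome RNA of *ppp-1(wrm10)* (5.60%, 6.70% and 4.68% of all loci) or in total or monosome RNA of *ppp-1(wrm15)* (4.88% and 6.20%). In monosomes against total RNA, 0 were higher in WT (2.46%), and 0 lower in WT (10.6%) or *ppp-1(wrm10)* (8.85%). In polysomes against monosomes, 1 (*rde-1*) was lower in each genotype (11.7% to 12.4%), and in polysomes against total RNA of *ppp-1(wrm15)* 2 were lower (16.3%), without *rde-1*. At a looser limit, a log2 ratio of 0.32, 2 were higher in polysomes of *ppp-1(wrm10)* (14.3%), and 3, 3 and 1 in total RNA, monosomes and polysomes of *ppp-1(wrm15)* (14.6%, 16.9% and 14.6%). Lower by that limit were 1 in total RNA of each allele (*rde-1*, 984 and 1391 loci) and 1 in monosomes of *ppp-1(wrm10)* (*alg-2*, 11.3%). For translational efficiency by that limit, 1 was lower in *ppp-1(wrm10)* (*alg-1*, 9.36%), and 2 were lower (9.46%) and 1 higher (*rde-1*, 9.68%) in *ppp-1(wrm15)*.

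Over the 6 comparisons with WT, 1074 to 1480 loci were higher and 251 to 593 lower at 1.5-fold. These were 533 to 843 and 71 to 128 at 2-fold, 1794 to 2152 and 984 to 1898 at the looser limit, 2309 to 2987 and 1334 to 1937 without the filter, 682 to 903 and 89 to 262 with a mean of at least 5 FPKM, and 819 to 1178 and 147 to 331 with 1 FPKM added.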
